A study of Mus musculus with 12 samples.

Results

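The 10 genes described here load, regulate or release cohesin, or mark the chromatin sites where it stops: Nipbl, Mau2, Pds5a, Pds5b, Ctcf, Esco1, Esco2, Cdca5, Hdac8 and Espl1. They were chosen by symbol from the 23337 genes of the deposited count tables, and all 10 were listed at both times. RNA was measured in peeled urothelium, the epithelial lining of the bladder stripped from the tissue below it, of Mus musculus. The 4 groups of 3 libraries were Stag2-WT and Stag2-KO mice sacrificed 1 week after the start of a week on a diet containing TMX (read here as tamoxifen), and Stag2-WT and Stag2-KO mice sacrificed 1 month after it. All groups, WT included, were given this diet, per the labels' protocols. The driver of the recombinase, the deleted exons, the strain, the age and the sex of the animals are not given in the sources used here. Batch 1 held the 6 libraries of 1 week, batch 2 held replicates 1 and 2 of both genotypes at 1 month, and batch 3 held replicate 3 of both, so that time and batch cannot be told apart.

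Cohesin is a ring that extrudes loops of interphase chromatin and, after replication, holds sister chromatids together. NIPBL, with its partner MAU2, drives loading and loop extrusion, and CTCF bound to its motif stops the ring and so anchors loop ends. PDS5A and PDS5B bind the ring and work with WAPL to release it, or with an acetylated ring to keep it in place. The acetyl group is put on SMC3 by ESCO1, present through the cell cycle, and by ESCO2, made for S phase. Sororin, the product of Cdca5, then shields the acetylated ring from WAPL until mitosis. At anaphase the protease separase, the product of Espl1, cuts the ring, and HDAC8 removes the acetyl group so that SMC3 can be used again. On this basis Nipbl, Mau2, Pds5a, Pds5b, Ctcf, Esco1 and Hdac8 were treated as constitutive, and Esco2, Cdca5 and Espl1 as genes expressed with the cell cycle. The normal urothelium is a slowly renewing epithelium in which few cells cycle.

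The study's title names DREAM, the complex that holds cell cycle genes silent in resting cells through a promoter element called CHR (cell cycle genes homology region), and promoters of the members are therefore shown. RefSeq (GRCm38.p6) gave a window of 300 bases, 250 before and 50 after a start site, for 7 of the 10 members. The windows of 2 cell cycle members and of 2 constitutive members are printed 5′ to 3′ on the strand of the gene. They lie at chr19:6084847-6085146 for Cdca5, chr15:102296043-102296342 for Espl1, chr5:150673577-150673876 for Pds5b and chr8:105636288-105636587 for Ctcf, all on the plus strand. Capitals mark matches on either strand. The CHR was searched as TTTGAA, with the variant spelling TTCGAA, the variant spelling TTTAAA and the variant spelling CTTGAA. The E2F site was searched as TTTCGCGC, as the spelling TTTGGCGC, as the spelling TTTCCCGC and as the spelling TTTGCCGC, and the box bound by NF-Y as CCAAT.
Cdca5: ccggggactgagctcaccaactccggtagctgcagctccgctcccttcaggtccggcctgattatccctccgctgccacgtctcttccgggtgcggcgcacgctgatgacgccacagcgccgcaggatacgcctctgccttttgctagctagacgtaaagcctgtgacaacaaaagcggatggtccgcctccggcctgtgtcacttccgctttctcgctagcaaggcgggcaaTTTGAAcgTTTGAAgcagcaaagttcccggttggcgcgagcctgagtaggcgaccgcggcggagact
Espl1: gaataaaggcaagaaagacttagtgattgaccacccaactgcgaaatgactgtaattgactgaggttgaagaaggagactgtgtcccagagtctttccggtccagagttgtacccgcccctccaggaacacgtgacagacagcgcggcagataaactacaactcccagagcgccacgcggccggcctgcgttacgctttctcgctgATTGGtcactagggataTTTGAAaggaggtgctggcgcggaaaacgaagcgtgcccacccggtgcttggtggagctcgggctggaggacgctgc
Pds5b: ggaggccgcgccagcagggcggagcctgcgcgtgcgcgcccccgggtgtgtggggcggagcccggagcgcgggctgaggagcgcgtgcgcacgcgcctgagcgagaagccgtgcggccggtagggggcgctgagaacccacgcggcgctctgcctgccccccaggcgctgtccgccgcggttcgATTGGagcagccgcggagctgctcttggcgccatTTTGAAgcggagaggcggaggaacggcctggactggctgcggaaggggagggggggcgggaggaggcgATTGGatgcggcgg
Ctcf: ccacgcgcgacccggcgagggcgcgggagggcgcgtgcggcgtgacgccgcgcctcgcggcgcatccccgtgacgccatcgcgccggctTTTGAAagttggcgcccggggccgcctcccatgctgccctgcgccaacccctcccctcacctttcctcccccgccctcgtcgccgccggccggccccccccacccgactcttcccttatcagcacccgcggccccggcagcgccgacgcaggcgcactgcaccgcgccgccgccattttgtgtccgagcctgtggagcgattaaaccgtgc
In the Cdca5 window TTTGAA occurred at both -17 and -9 from the start site. The Espl1 window held TTTGAA at -27 and, on the other strand, CCAAT at -44. Pds5b, a constitutive gene, held TTTGAA at -32 and CCAAT on the other strand at -66 and 37, and Ctcf held TTTGAA at -161. Of the other members with a window, Hdac8 held TTTGAA at -129 and, on the other strand, at -244, with CCAAT at -172 overlapping one on the other strand at -169. Mau2 held TTCGAA at -81 in one window and CTTGAA on the other strand at -230 in another, and Pds5a held the E2F spelling TTTGGCGC on the other strand at -106. TTTGAA stood in 17.9% of all 32851 promoter windows of the table, any of the CHR spellings in 37.3%, CCAAT in 37.4% and any of the E2F spellings in 2.26%. A TTTGAA that begins in the last 50 bases before the start site, a range chosen after the matches were seen, occurred in 2.82% of windows, and in those of Cdca5, Espl1 and Pds5b among the members. Matching letters near the start site were thus present in windows of both kinds of gene.

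Total counts ran from 5580961 to 9497088 per library, and replicate libraries all differed by more than sampling noise. Stag2, the targeted gene, was below every WT library in every KO library of the same time, at 59.5 to 72.2 against 106 to 151 CPM (CPM are counts divided by library size, with TMM scaling over all 12 libraries) at 1 week and at 19.3 to 39.4 against 45.1 to 64.6 CPM at 1 month. These are 3′ counts, and since the deleted exons are not given, a lower level bears on the labels only in part. The 11 urothelial markers were detected in every library. Their summed level at 1 week was 10338 to 12646 CPM in WT and 8185 to 11870 CPM in KO. At 1 month it was 14031 to 29620 CPM in WT and 10427 to 15172 CPM in KO. At each time 4 of the 11 had a positive log2 fold change, with a median of -0.26 at 1 week and -0.36 at 1 month. Of the 11, 1 was called lower in KO at 1 month. Xist, transcribed from an inactive X chromosome, had 6392 to 10406 counts in the KO libraries of 1 week and 7764 in KO replicate 3 of 1 month, against at most 28 in the others. The summed counts of 4 Y-linked genes were 0 to 4 in those 4 libraries and 632 to 2140 in the others, so genotype and the sex that these genes mark cannot be told apart at 1 week or within batch 3. Markers of other cells leaned to higher values in KO at 1 week. The summed level of 14 stromal markers was 3566 to 5827 CPM in WT and 5703 to 10958 CPM in KO, which overlapped. That of 8 leukocyte markers was 137 to 224 CPM in WT and 234 to 455 CPM in KO. Of the markers tested, 13 of 14 stromal and 5 of 6 leukocyte ones had a positive log2 fold change. In each set 0 were called at that time, where 0.0627% of all genes were. Leukocyte markers were lower in KO at 1 month, at 214 to 324 against 488 to 1114 CPM, with 0 of 6 tested positive and a median log2 fold change of -1.28. Of these 6, 3 were called lower in KO, as 1.22% of all genes were, and 4 had every KO library below WT, as 6.71% had. The summed stromal level was 8456 to 9983 CPM in KO and 10283 to 14244 CPM in WT, while gene by gene 7 of 14 stromal markers were positive, with a median log2 fold change of 0.01 and 1 called higher. The part of these differences in the results below was not tested. KO replicate 3 of 1 week stood apart, with a median Spearman correlation of 0.797 to the other libraries of that time, where the others had 0.927 to 0.9499.

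Of the 9 members tested at 1 week, 2 had no overlap between the genotypes, a smaller share than that of all genes. These were Esco2 and Cdca5, near the detection floor in WT and higher in every KO library, whereas none of the 7 constitutive genes had KO libraries all above or all below WT. Of all genes tested at 1 week, 26.6% had no overlap between the genotypes, 13.2% with KO above and 13.4% with KO below WT, and at 1 month, where no member stood apart, 13.1% had none, 6.42% with KO above and 6.71% with KO below. A log2 fold change above 0 was found for 5 of the 9 members tested at 1 week and 51.5% of all genes, and for 2 of the 7 at 1 month and 49.6% of all genes. The members were then tested with edgeR's quasi-likelihood test (p-values adjusted by Benjamini-Hochberg over all genes tested, threshold 0.05). No member passed at 1 week, where 9 of the 10 could be tested and 0.0627% of all genes passed (0.0157% higher and 0.047% lower in KO). Of the members, 2 had an unadjusted p under 0.05, both higher in KO, where 15.5% of all genes had one (10.5% higher and 5.03% lower). DESeq2 called both, and with them 7.5% of all genes (5.39% higher in KO), and the edgeR fit of all 12 libraries also called both and 4.21% of all genes. Neither gene had a WT library of 1 week at the CPM cut of the filter on low counts, as held for 0.933% of all genes tested. Both were thus tested at 1 week through the KO libraries alone. Their calls and p-values, here and below, are a description. At 1 month 7 could be tested and 0 passed, with 0 at an unadjusted p under 0.05 and 0 called by DESeq2, where 2.22% of all genes passed (0.997% higher and 1.22% lower in KO) and DESeq2 called 6.43%. An unadjusted p under 0.05 was reached by 21.5% of all genes at that time (11.1% higher and 10.3% lower).

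**Figure D1:**
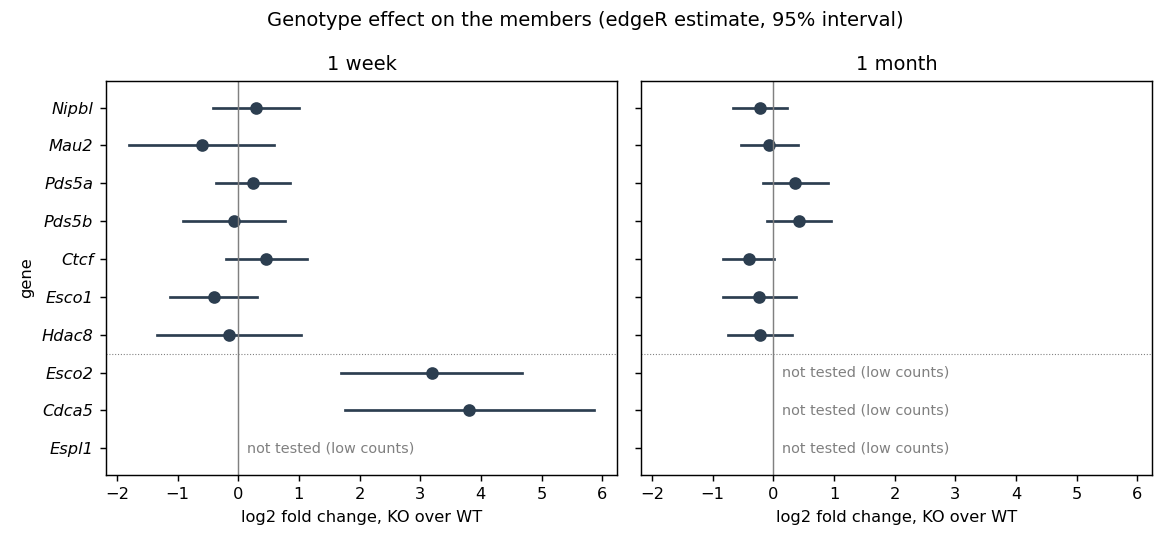
Log2 fold change of KO over WT for each member at 1 week (left) and 1 month (right), with the unadjusted 95% interval of the edgeR fit as a bar; the dotted line divides constitutive from cell cycle genes. Intervals of the constitutive genes include 0 at both times, and Esco2 and Cdca5 lie at 3.19 and 3.81 at 1 week.

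Nipbl, the loader, was read at 415, 379 and 508 CPM in the WT libraries of 1 week and at 512, 398 and 655 CPM in the KO libraries. The genotypes overlapped, with KO replicate 3 the highest of the 6. Nipbl had a log2 fold change of 0.29 (SE 0.30, 95% interval -0.42 to 1.00, edgeR adjusted p 0.656), with 0.05 (without KO replicate 3) to 0.43 (without KO replicate 2) when single libraries were left out. At 1 month Nipbl was read at 370.2, 439.7 and 209.7 CPM in WT and at 299, 328 and 216 CPM in KO. Here the batch 3 libraries were the lowest of each genotype, and the log2 fold change of -0.22 (SE 0.21, interval -0.67 to 0.22, adjusted p 0.551) joined a log2 CPM difference of -0.37 in batch 2 and of 0.04 in batch 3.

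Mau2, the partner of Nipbl in the loader, did not follow it in KO replicate 3 of 1 week. It was read at 66.2, 63.9 and 86.0 CPM in WT and at 78.6, 42.9 and 17.8 CPM in KO at 1 week. The KO libraries thus spread more widely than WT, from above 2 of the WT libraries down to 90 counts in replicate 3, where Nipbl was highest. Mau2 had a log2 fold change of -0.60 (SE 0.51, interval -1.80 to 0.60, edgeR adjusted p 0.586), with -0.27 when KO replicate 3 was left out and -1.25 when KO replicate 1 was (adjusted p 0.251). At 1 month the levels were 60.9, 74.7 and 55.0 CPM in WT and 76.0, 71.9 and 39.3 CPM in KO. They overlapped, with a log2 fold change of -0.07 (SE 0.22, interval -0.54 to 0.41, adjusted p 0.883), which was 0.16 in batch 2 alone and 0.15 with scaling by library size.

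The 2 Pds5 genes encode related proteins that share the ring as a partner. Pds5a was read at 42.9, 48.6 and 46.7 CPM in WT and 48.0, 48.6 and 64.7 CPM in KO at 1 week. Apart from KO replicate 3 the values lay close together, and the log2 fold change was 0.25 (SE 0.26, interval -0.37 to 0.86, edgeR adjusted p 0.665), or 0.05 without that library. By library size alone every KO library was above every WT library, while with TMM scaling they overlapped. At 1 month Pds5a was read at 21.1, 26.3 and 20.4 CPM in WT and 22.3, 32.4 and 32.0 CPM in KO, with a log2 fold change of 0.36 (SE 0.25, interval -0.18 to 0.90, adjusted p 0.421).

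Pds5b was read at 66.8, 56.0 and 81.3 CPM in WT and 76.7, 76.6 and 37.0 CPM in KO at 1 week. KO replicate 3 was the lowest and the other KO libraries lay within the WT range. The log2 fold change of -0.08 (SE 0.36, interval -0.92 to 0.76, edgeR adjusted p 0.933) was 0.15 without KO replicate 3 and -0.26 without KO replicate 1. At 1 month it was read at 40.8, 59.7 and 35.0 CPM in WT and 50.1, 78.8 and 50.5 CPM in KO, and the genotypes overlapped. The log2 fold change was 0.42 (SE 0.24, interval -0.10 to 0.94, adjusted p 0.333), with a log2 CPM difference of 0.35 in batch 2 and 0.53 in batch 3.

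The share of Pds5b in the summed counts of both genes does not depend on scaling. It was 60.9%, 53.6% and 63.5% in WT and 61.5%, 61.2% and 36.4% in KO at 1 week. KO replicate 3, with an exact (Clopper-Pearson) 95% interval of 32.2% to 40.7% that covers counting error only, stood below the other 5 libraries, whose intervals began at 50.3% or more. The means were 59.3% ± 5.16 (SD, n = 3) in WT and 53.0% ± 14.4 in KO, a difference of -6.30 percentage points (two-sided exact permutation p 0.7, where 3 against 3 cannot go below 0.1), and the difference was 2.02 points without KO replicate 3. At 1 month the share was 66.2% ± 3.14 in WT and 67.1% ± 5.17 in KO (exact permutation p 0.9).

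Wapl, the release factor that acts with the Pds5 proteins and is listed as Wapal in the files, was read at 179 to 267 CPM in WT and 191 to 383 CPM in KO at 1 week. Its log2 fold change was 0.28 (SE 0.36, edgeR adjusted p 0.727) at that time and -0.43 (SE 0.21, adjusted p 0.254) at 1 month. The genotypes overlapped at both times.

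Ctcf, whose product binds boundary sites, had opposite signs at the 2 times. It was read at 210.4, 181.3 and 248.6 CPM in WT and 300.3, 229.6 and 339 CPM in KO at 1 week, so that KO replicate 2 lay below the highest WT library and the other KO libraries above it. This gave a log2 fold change of 0.46 (SE 0.29, interval -0.20 to 1.13, edgeR adjusted p 0.460). At 1 month it was read at 235, 233 and 111 CPM in WT and 193, 153 and 84.7 CPM in KO. In each batch KO was the lower genotype, by a log2 CPM difference of -0.44 in batch 2 and -0.39 in batch 3. Batch 3 held only replicate 3 of each genotype, and its KO library carried Xist. The log2 fold change was -0.41 (SE 0.20, interval -0.83 to 0.02, adjusted p 0.252), and -0.19 with scaling by library size. Subtracting the effect of 1 week from that of 1 month gave -0.86 on the log2 scale (SE 0.34, unadjusted p 0.0257), which did not pass adjustment over all genes (edgeR adjusted p 0.201, with 0.0809 to 0.429 over the alternatives tried).

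**Figure D2:**
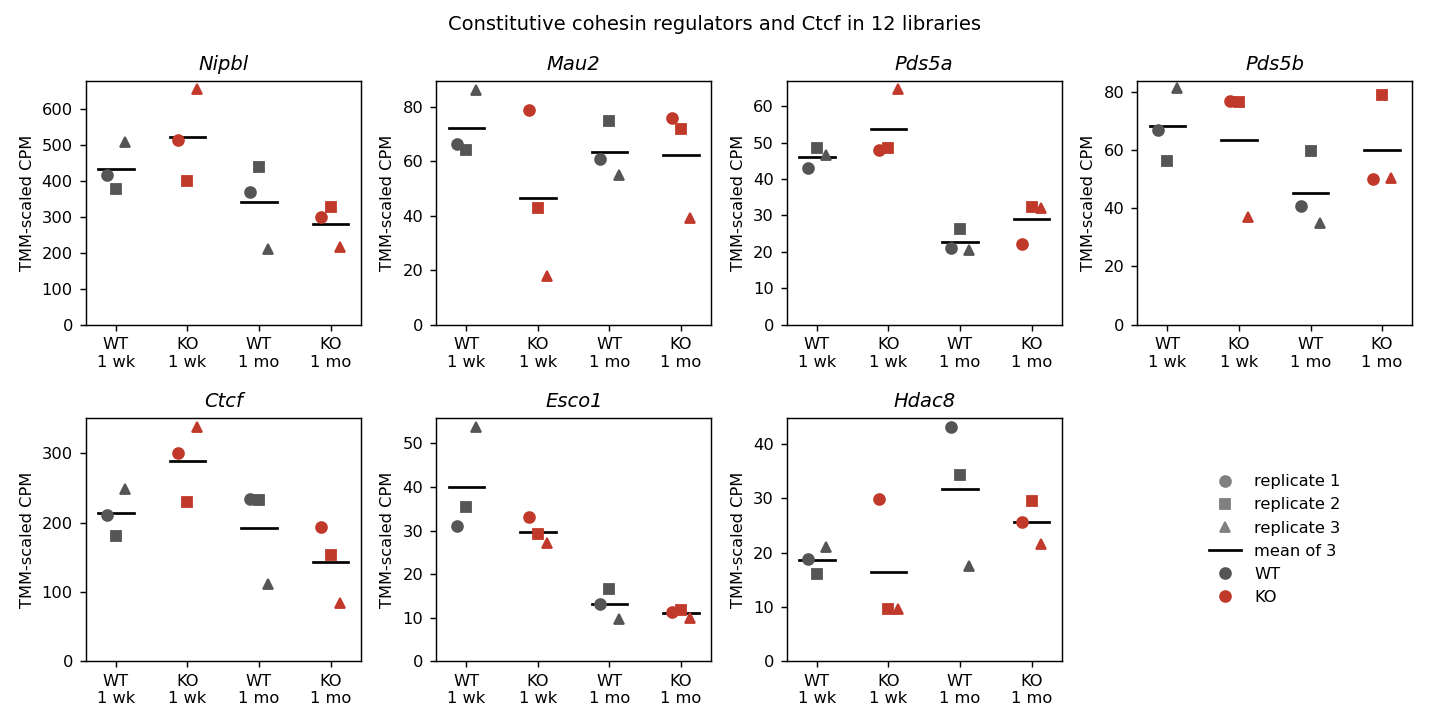
TMM-scaled CPM of the 7 constitutive genes in the 12 libraries by genotype and time, with 1 symbol per replicate number (which pairs no animals) and a line for the mean of 3. WT and KO overlap in every panel, and KO replicate 3 of 1 week is the lowest library for Mau2 (17.8 CPM) and the highest for Nipbl (655 CPM).

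The acetylation cycle of SMC3 was represented by 2 acetylases and a deacetylase. Esco1, the acetylase present through the cell cycle, was read at 31.1, 35.5 and 53.7 CPM in WT and 33.04, 29.2 and 27.1 CPM in KO at 1 week. WT replicate 3 was the highest and the others overlapped, and the log2 fold change was -0.40 (SE 0.31, interval -1.13 to 0.32, edgeR adjusted p 0.550). At 1 month the levels were 13.3, 16.7 and 9.83 CPM in WT and 11.4, 11.8 and 10.01 CPM in KO. All 6 libraries of 1 month were below all 6 of 1 week, a step that falls between batches, and within 1 month the log2 fold change was -0.23 (SE 0.28, interval -0.83 to 0.37, adjusted p 0.655).

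Hdac8, the SMC3 deacetylase, lies on chromosome X, and its 3′ end overlaps Gm14858 on the other strand, which the stranded counting named in the labels' protocols keeps apart. It was read at 18.9, 16.2 and 21.0 CPM in WT and 29.8, 9.58 and 9.69 CPM in KO at 1 week. KO replicate 1 was above and the other KO libraries were below all WT libraries, and all 3 carried Xist. Hdac8 had a log2 fold change of -0.16 (SE 0.51, interval -1.34 to 1.03, edgeR adjusted p 0.896), which was 0.04 without KO replicate 3, 0.089 without KO replicate 2 and -0.96 without KO replicate 1. At 1 month it was read at 43.2, 34.4 and 17.6 CPM in WT and 25.7, 29.4 and 21.5 CPM in KO. The log2 fold change of -0.23 (SE 0.24, interval -0.75 to 0.30, adjusted p 0.616) joined a log2 CPM difference of -0.48 in batch 2 and of 0.29 in batch 3, where the KO library carried Xist, and was 0.01 with scaling by library size.

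Esco2, the acetylase of S phase, was covered at 1 week by only 3, 4 and 4 reads in WT, against 12, 44 and 26 reads in KO. On the CPM scale this was 0.357, 0.458 and 0.406 in WT and 1.54, 4.74 and 5.14 in KO, and the genotypes did not overlap. The ratio of the summed counts, over TMM-scaled library sizes, was 9.08 (exact 95% interval 4.82 to 18.9, counting error only). The log2 fold change was 3.19 (SE 0.64, interval 1.69 to 4.69), with an unadjusted p of 0.00133 and an edgeR adjusted p of 0.110. It was 3.24 under DESeq2 (adjusted p 0.00162), 3.16 in a fit that shared the spread of all 12 libraries (edgeR adjusted p 0.0401), and 2.90 without KO replicate 3 (adjusted p 0.0711). Without KO replicate 2 the adjusted p was 0.158, and without each WT library in turn it was 0.478 to 0.507. At 1 month the WT reads numbered 0, 1 and 0 and the KO reads 0, 1 and 2, at or under the floor of 3 counts in every library, and no fold is given.

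Cdca5 encodes sororin. At 1 week it was covered by 1, 5 and 1 WT reads and by 11, 60 and 18 KO reads, or 0.119, 0.573 and 0.102 CPM against 1.41, 6.46 and 3.56 CPM. Each KO library was above each WT library, and replicate 2 was the highest. The summed counts had a ratio of 15.5 (exact 95% interval 7.21 to 39.6, counting error only) and the log2 fold change was 3.81 (SE 0.88, interval 1.76 to 5.87, unadjusted p 0.00297, edgeR adjusted p 0.133). DESeq2 gave 3.88 (adjusted p 0.00258) and the fit of all 12 libraries 3.79 (edgeR adjusted p 0.0298), and without KO replicate 3 the value was 3.84 (adjusted p 0.0751). It moved more without other libraries, to 4.94 without WT replicate 2 (adjusted p 0.478), 3.38 without WT replicate 3 (adjusted p 0.511) and 3.14 without KO replicate 2 (adjusted p 0.173). Later, at 1 month, the WT libraries gave 9, 4 and 2 reads and the KO libraries 5, 3 and 3, too few for the default filter, with a ratio of summed counts of 0.601 (exact 95% interval 0.250 to 1.40).

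Espl1, the separase gene, did not follow this pattern in all KO libraries. At 1 week the WT libraries gave 6, 1 and 8 reads and the KO libraries 6, 61 and 4. Only KO replicate 2, at 6.57 CPM, was high, while replicates 1 and 3, at 0.768 and 0.791 CPM, lay within the WT range of 0.115 to 0.812 CPM. It was not tested at the default filter, and without a filter the log2 fold change was 2.29 (edgeR adjusted p 0.386). By 1 month the reads numbered 2, 5 and 2 for WT and 5, 6 and 3 for KO, and the genotypes overlapped.

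Mki67, a gene of dividing cells, was set beside these 3 genes. It was read at 2.62, 2.86 and 1.83 CPM in WT and 25.9, 188 and 153 CPM in KO at 1 week, and at 25.9, 9.20 and 3.58 CPM in WT and 3.84, 3.62 and 4.40 CPM in KO at 1 month. KO replicate 1 of 1 week was, by CPM, the lowest KO library of that time for Mki67, Esco2, Cdca5 and Espl1, and replicate 2 was the highest for Mki67, Cdca5 and Espl1. Among the libraries of 1 month, WT replicate 1 had the most Mki67 and, at 9 counts, the most Cdca5. The Mki67 log2 fold change at 1 week was 5.66 (SE 0.79, edgeR adjusted p 0.0844). In a tissue sample, fewer cells expressing a gene and less RNA per cell cannot be told apart. Because Esco2 and Cdca5 passed the filter on low counts through the KO libraries alone, their having passed is not support for a difference.

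**Figure D3:**
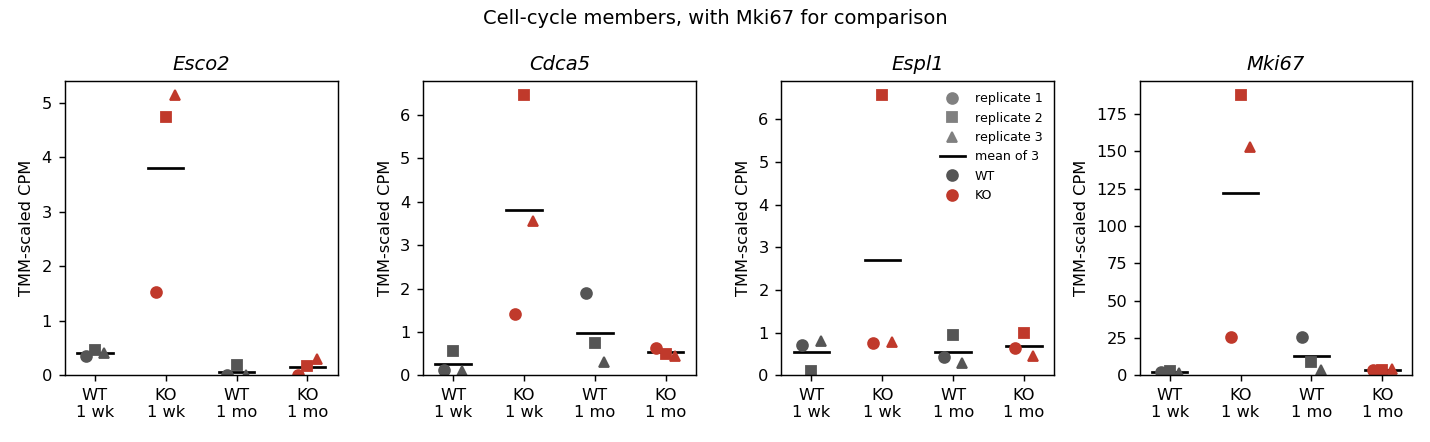
TMM-scaled CPM of Esco2, Cdca5, Espl1 and, for comparison, Mki67 in the 12 libraries by genotype and time, with 1 symbol per replicate number and a line for the mean of 3. The KO libraries of 1 week stand above WT for Esco2 (1.54 to 5.14 CPM) and Cdca5 (1.41 to 6.46 CPM), while for Espl1 KO replicate 2 alone, at 6.57 CPM, does.

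The share of Esco2 in the counts of both acetylase genes was compared because it needs no scaling. It was 1.13%, 1.27% and 0.750% in WT and 4.44%, 14.0% and 16.0% in KO at 1 week, with no overlap. The means were 1.05% ± 0.271 (SD, n = 3) and 11.5% ± 6.15, a difference of 10.4 percentage points at the smallest p that 3 against 3 allows (two-sided exact permutation p 0.1), and 8.15 points without KO replicate 3. KO replicate 1 had an exact 95% interval of 2.32% to 7.63%, which overlapped the interval of WT replicate 1 (0.234% to 3.27%). At 1 month the share was 0, 1.11% and 0 in WT and 0, 1.37% and 2.94% in KO, each from at most 2 Esco2 counts, where 0 of 63 counts in WT replicate 1 allows a share of up to 5.69%, and the difference was 1.07 points (exact permutation p 0.4).

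**Figure D4:**
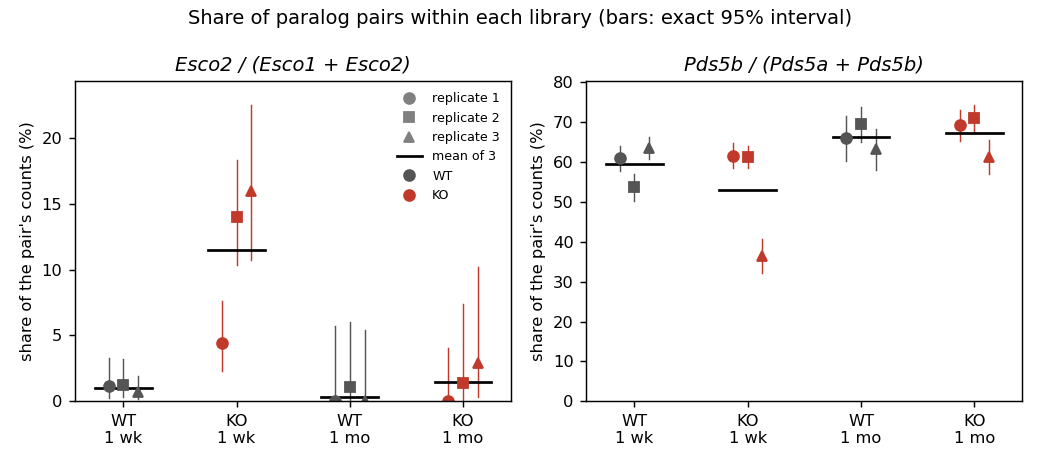
Share of Esco2 in the Esco1 and Esco2 counts (left) and of Pds5b in the Pds5a and Pds5b counts (right), in percent, for each library, with the exact 95% binomial interval as a thin bar and the group mean as a line. The Esco2 share is 4.44% to 16.0% in KO and 0.750% to 1.27% in WT at 1 week, and KO replicate 3 of 1 week has the lowest Pds5b share, 36.4%.

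A change of the genotype effect with time was tested as an interaction over all 12 libraries. Of 9 members tested 0 passed, with 2 at an unadjusted p under 0.05 (Ctcf and Cdca5) and 1 called by DESeq2 (Cdca5), which called 6.99% of all genes (4.66% below 0). No gene of the 13122 tested passed (0%), and 19.9% had an unadjusted p under 0.05 (7.87% above and 12% below 0). The difference was above 0 for 4 of the 9 members and for 48.3% of all genes. For Cdca5 the difference, 1 month minus 1 week, was -4.51 on the log2 scale (SE 1.21, unadjusted p 0.00296, edgeR adjusted p 0.111). DESeq2 gave -4.62 (adjusted p 0.0141), and over the alternatives tried the adjusted p ran from 0.0141 to 0.334. For Esco2 the difference was -2.08 with an SE of 2.29 (adjusted p 0.626), a fitted value that rests on 4 counts in all at 1 month and turned to 0.54 without WT replicate 2 of 1 month. Outside the KO libraries of 1 week Cdca5 had at most 9 counts and Esco2 at most 4, against 11 to 60 and 12 to 44 in those. Both genes thus entered this fit mainly through the KO libraries of 1 week. Their differences lean to negative values and are a description.

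Levels across the 4 groups had different orders for different members. Nipbl and Ctcf both ran, by group mean, from KO at 1 week (522 and 289 CPM) through WT at 1 week (434 and 213 CPM) and WT at 1 month (339.8 and 193 CPM) to KO at 1 month (281 and 144 CPM), with each neighbour in the order overlapping the next. Pds5a and Esco1 formed a higher pair of groups at 1 week and a lower pair at 1 month that did not overlap. Hdac8 had higher group means at 1 month (31.7 and 25.6 CPM) than at 1 week (18.7 and 16.4 CPM), but the times overlapped, since 4 of its 6 libraries of 1 month lay within the range of 1 week. For Esco2 the KO libraries of 1 week lay above all the others, while for Cdca5 WT replicate 1 of 1 month (1.90 CPM) overlapped KO at 1 week.

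Likeness to other genes was described by the Pearson correlation of log2 CPM over the 12 libraries, which share batch and time, so no p is given. The genes most like Cdca5 were Mki67 (0.97), Cdkn2c (0.96) and Cdkn3 (0.95). Of the 50 genes most like Cdca5, 7 were on a list of 22 proliferation genes, against 3 for Espl1, 1 for Esco2 and 0 for each of the 7 constitutive genes. Of that list, 20 were among the 13122 genes that passed the filter of this fit. Esco2 was most like Galnt1 (0.98), Psapl1 (0.97) and Cep55 (0.97), and Espl1 most like Trex2 (0.85), S100a3 (0.84) and Anxa3 (0.83). At the few counts of Esco2, Espl1 and, outside the KO libraries of 1 week, Cdca5 (1 to 9 per library), such values are coarse. They also lean on the KO libraries of 1 week. Without those, the correlation with Mki67 went from 0.97 to 0.90 for Cdca5, from 0.78 to -0.55 for Esco2 and from 0.60 to -0.02 for Espl1. For Hdac8 it went from -0.42 to 0.84, and for the other constitutive genes it was then -0.64 to 0.19. Nipbl was most like Cdc40 (0.99), Senp6 (0.98) and Hmg20b (0.98), and Ctcf most like Hmg20b (0.98), Bag3 (0.97) and Mpp6 (0.97). Between them Nipbl and Ctcf had a correlation of 0.94, whereas Nipbl and Mau2 had one of -0.15. The latter includes KO replicate 3 of 1 week, where Nipbl was the highest (655 CPM) and Mau2 the lowest (17.8 CPM) of all libraries. It was not computed without that library.

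The genes most like Mau2 were Zfp397 (0.97), Ncor1 (0.95) and Ankra2 (0.94), and those most like Pds5a were Copb2 (0.97), Mia2 (0.96) and 4930506M07Rik (0.96). Pds5b had weaker neighbours, Zfp36l1 (0.88), Tle4 (0.87) and Chmp2b (0.86). Esco1 was most like Golgb1 (0.98), Clasp1 (0.98) and 1810074P20Rik (0.98), and Hdac8 most like Polr3gl (0.96), Unc13c (0.94) and Zmat5 (0.94).

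Other genes of the pathway were counted as lists. Of the 5 somatic ring genes (Smc1a, Smc3, Rad21, Stag1, Stag2), 0 passed at either time. At 1 week 4 of the 5 had a positive log2 fold change (51.5% of all genes), with a median of 0.40 against 0.02 over all genes. Stag2 had -0.89 (SE 0.27, edgeR adjusted p 0.198), and among the subunits Stag1 (0.71, adjusted p 0.366) and Smc1a (0.59, adjusted p 0.363) had every KO library above WT, as 13.2% of all genes did. Both were highest in KO replicate 3, Stag1 at 151 CPM against 72.0 and 85.8 CPM in KO replicates 1 and 2. At 1 month all 5 had a negative value, with a median of -0.29 against -0.01 over all genes, and Stag2 had -0.88 (SE 0.22, adjusted p 0.0507). Of the 5 germ line variants, 2 were tested at 1 week (Smc1b, -0.38, and Stag3, 0.26) and 1 at 1 month (Stag3, -0.09), and 0 passed.

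Of 12 genes that help cohesion or its mitotic release, 9 were tested at each time and 0 passed, with a median log2 fold change of 0.97 at 1 week and 0.04 at 1 month. Plk1, a mitotic kinase that helps to remove cohesin, had 4.29 at 1 week (SE 1.06, edgeR adjusted p 0.141). Sgo1, the protector of centromeric cohesin, listed as Sgol1, had 3.13 (SE 0.92, adjusted p 0.188), and Timeless, a replication fork gene, had 1.84 (SE 0.53, adjusted p 0.180). Plk1 and Sgo1 leaned on KO replicate 2. The KO libraries in order had 3.84, 40.9 and 6.33 CPM for Plk1 and 4.23, 15.3 and 1.98 CPM for Sgo1. Pttg1, which encodes securin, the inhibitor of separase, had -0.43 (SE 0.67, adjusted p 0.767). At 1 month Tipin, the partner of Timeless, was the gene with no overlap, at 10.8 ± 1.24 CPM in KO and 4.67 ± 2.33 CPM in WT (log2 fold change 1.25, SE 0.39, adjusted p 0.0960). Of all genes, 6.42% had every KO library above WT at that time.

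Condensin, the related complex that compacts mitotic chromosomes, had 7 of 8 subunit genes with a positive value at 1 week (51.5% of all genes), a median of 1.49 and 0 calls. Of these 8, Ncapg and Ncaph had no WT library at the CPM cut of the filter (10 counts at the median library size), so they were tested through KO libraries alone. Ncapg had 4.203 (SE 0.83, edgeR adjusted p 0.110), Ncapg2 3.14 (SE 0.52, adjusted p 0.0927), Ncaph 2.37 (SE 0.62, adjusted p 0.154) and Smc2 1.495 (SE 0.45, adjusted p 0.197), each with every KO library above WT, as 13.2% of all genes had. At 1 month 5 were tested, 4 of them negative, with a median of -0.09. The proliferation list had 20 genes tested at 1 week, all 20 positive, with a median of 3.15 and 0 calls (12 at an unadjusted p under 0.05), among them Cdk1 (6.26, SE 1.06, adjusted p 0.0927), Mki67, Ccnb1 (5.49, SE 0.90, adjusted p 0.0927) and Top2a (4.28, SE 0.66, adjusted p 0.0927). Of all genes, 51.5% were positive and 10.5% had an unadjusted p under 0.05 with KO higher. Cdk1, Ccnb1, Ccnb2 and Aurka were likewise at the cut in no WT library, so that the tally and the median of both lists lean to positive values and are a description. At 1 month 6 of 15 were positive (49.6% of all genes) and the median was -0.16. Mcm5 (-1.30, SE 0.34, adjusted p 0.0642) and Mcm6 (-1.70, SE 0.48, adjusted p 0.0801), both of the replicative helicase, had every KO library below WT, as 6.71% of all genes had. Mcm2 and Mcm3, of the same helicase, overlapped between the genotypes, with group means of 7.85 and 18.8 CPM in KO against 3.98 and 20.7 CPM in WT.

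**Figure D5:**
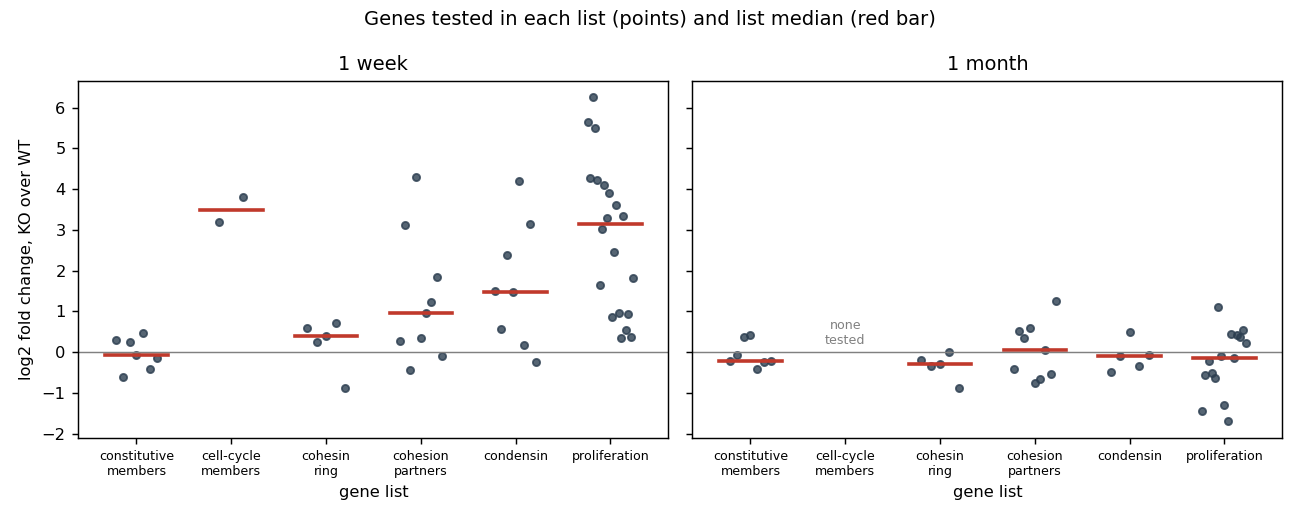
Log2 fold change of KO over WT for each gene tested (points) in 6 lists at 1 week (left) and 1 month (right), with the list median as a red bar. At 1 week the constitutive members have a median of -0.08 and the proliferation list one of 3.15, and no cell cycle member could be tested at 1 month.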

How the data were processed

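Raw counts per gene were deposited in 1 table per time, with a column for each of 12 libraries and the same 23337 gene symbols, and all were assigned by library name. The title of WT replicate 3 at 1 month carries another animal number than its library name. Per the labels' protocols, the authors made QuantSeq 3′ libraries (sense strand, oligo-dT primed), so a count is not divided by length and levels were not compared between genes. Bowtie, TopHat, HTSeq and DESeq2 and the build mm10 are named in the submitters' processing notes, without versions; the annotation is not given in the sources used here.

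Libraries were grouped by the labelled genotype and time. Their replicate numbers follow accession order and pair nothing. Whether libraries of a group came from separate animals rests on the animal numbers in the titles. The members, lists and tests were chosen with earlier results of these data known. The genes named are all members, Stag2, Mki67, Top2a and Wapl, up to 4 genes per list and time (called genes first, then genes without overlap by size), and the 3 genes most like each member. Pttg1, Smc1b, Stag3, Ccnb2, Aurka, Mcm2 and Mcm3 were named after their values were seen.

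CPM used TMM factors from all 12 libraries, and log2 CPM a prior count of 2. Each time was fitted on its own with edgeR 4.0.16 (R 4.3.3; robust quasi-likelihood, TMM, default filter on low counts), with batch as covariate at 1 month, and the interaction over 12 libraries with batch. SE is the absolute log2 fold change over the square root of F. Intervals are unadjusted. At 1 week 12754 genes were tested and at 1 month 12139. The steps were tested on simulated data. Alternatives were DESeq2 1.42.0, other scaling, filters, dispersions and batch terms, and leaving out each library. A floor of 3 counts is 0.305 to 0.632 CPM, for counting error only. Gene positions came from GENCODE M21, which has the same assembly as mm10 (GRCm38).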

Additional observations from a re-analysis of the deposited data

How the results depend on the processing

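The number of members called moved at 1 week, from 0 to 2 (Esco2 and Cdca5, both higher in KO) under DESeq2 and to 2 in the fit of all 12 libraries, and for the interaction from 0 to 1 (Cdca5) under DESeq2. It was 0 under every other alternative run and without each library in turn. Esco2 and Cdca5 had no value at a mean of at least 20 counts. Of 380 member values under alternatives, 356 kept direction and side of the threshold, 5 gained a call, and 19, none called, changed sign. Besides single libraries these were, for Mau2 at 1 month, 0.15 by library size and 0.16 in batch 2 alone, for Hdac8 at 1 month 0.0060 by library size, and for the Hdac8 interaction 0.19 by library size and 0.029 without a filter. Leaving out a library gave 2.90 to 3.55 for Esco2, 3.14 to 4.94 for Cdca5, -0.26 to 0.15 for Pds5b and -0.96 to 0.089 for Hdac8 and -1.25 to -0.27 for Mau2 at 1 week, -0.22 to 0.16 for Mau2 at 1 month, and in the interaction -0.31 to 0.73 for Hdac8, -0.065 to 0.39 for Esco1, -3.50 to 0.54 for Esco2 and -0.0027 to 0.33 for Pds5a. The Pds5b share differed by -10.5 to 2.02 points at 1 week and by -0.96 to 3.86 at 1 month. The Esco2 share kept its sign. The cause was not tested.

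Over all genes, the 8 called at 1 week became 62 without a filter, 957 under DESeq2, 553 in the fit of all 12 libraries, and 0 to 320 without single libraries. The 269 at 1 month became 561 by library size (456 higher and 105 lower, against 121 and 148), 1276 without a filter, 781 under DESeq2, 0 without the batch term, 1474 in batch 2 alone, 0 in the fit of all 12 libraries, and 45 to 1522 without single libraries. The 0 of the interaction became 137 without a filter, 917 under DESeq2, and 0 to 440 without single libraries. No paired analysis was possible because the labels give no replicate numbers. At 0 to 9 counts per library, Esco2, Cdca5 and Espl1 outside the KO libraries of 1 week allow no finer statement.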
